A study of Homo sapiens with 54 samples.

Results

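The 36 genes described here act at the G1/S boundary and in DNA replication, and they were followed in HT-29 cells, an established human colorectal adenocarcinoma line. Members are the probe sets that the platform annotation maps to the 36 symbols. The symbols were listed with earlier results of these data known, among them that such genes are lower with TNF, so that direction is not independent of the choice. All 36 were measured, among 8105 genes with a probe set of their own. They comprise origin licensing (ORC1, ORC6, CDC6, CDT1, DTL), the replicative helicase (MCM2 to MCM7, GINS1, GINS2, CDC45), polymerases and primase (POLA1, PRIM1, POLE2, POLD1), the sliding clamp and its loader (PCNA, RFC2 to RFC5), flap removal, ligation and uracil repair (FEN1, LIG1, UNG), nucleotide supply (RRM1, RRM2, TYMS, TK1), G1/S control (E2F1, CCNE1, CCNE2) and chromatin or histone supply (CHAF1A, CHAF1B, SLBP).

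Every culture, controls included, had been primed with interferon-gamma at 200 U/ml for 24 h. The 9 treatments that followed were none, TNF alone (5 or 100 ng/ml), EGF alone (100 ng/ml), insulin alone (500 ng/ml), low-dose TNF (5 ng/ml) joined by EGF (1 ng/ml) or insulin (5 ng/ml), and high-dose TNF (100 ng/ml) joined by EGF (100 ng/ml) or insulin (500 ng/ml). RNA was taken after 4, 8 or 16 h, in biological duplicate, on 54 Affymetrix arrays. Below, a factor's name followed by a number gives its dose in ng/ml, and "no factor" means interferon-gamma priming alone, so no comparison concerns cells without interferon-gamma.

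Before S phase, the origin recognition complex, CDC6 and CDT1 load the MCM helicase on DNA. The helicase becomes active when CDC45 and the GINS complex join it, after which primase, polymerases and the PCNA clamp copy the strands from nucleotides made by ribonucleotide reductase and thymidylate synthase. Cyclin E with its kinase relieves RB's hold on E2F factors, which activate most of these genes as cells leave G1, and E2F1 is itself an E2F target.

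The sequence before the transcription start was read for the members because they moved together in these arrays. RefSeq windows of 300 bases (250 before the start) on GRCh38.p14 were found for 33 members, and MCM4, MCM5 and CCNE2 had none. The E2F words sought were TTCCCGC, the variant TTCGCGC, the variant TTGCCGC and the variant TTGGCGC, on both strands, with overlapping matches counted as 1 site. They were present in 25 of the 33 windows (75.8%), against 3564 of all 27305 RefSeq windows (13.1%). The 27305 include genes that are not among the 8105 measured here, and they were not matched to the members in base composition. At least 2 sites were present in 10 of the 33, against 1.71% of all windows. The word CCAAT was in 57.6% of member windows and 35.7% of all windows, and the CHR word TTTGAA or its variant TTCGAA, typical of genes expressed later in the cycle, were in 6.06% and 16.6%. The 160 bases before the start are printed for 6 members that the results turn on, 5′ to 3′ along the gene, with E2F words (or their reverse complements) in capitals. They are E2F1 (chr20:33686386-33686545, minus strand), CDT1 (chr16:88803629-88803788, plus strand), DTL (chr1:212035588-212035747, plus strand), MCM6 (chr2:135876444-135876603, minus strand), GINS2 (chr16:85688955-85689114, minus strand) and RRM2 (chr2:10122579-10122738, plus strand).
E2F1: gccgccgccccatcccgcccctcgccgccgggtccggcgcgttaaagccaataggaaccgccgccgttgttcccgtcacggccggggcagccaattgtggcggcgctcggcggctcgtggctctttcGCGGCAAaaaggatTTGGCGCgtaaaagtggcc
CDT1: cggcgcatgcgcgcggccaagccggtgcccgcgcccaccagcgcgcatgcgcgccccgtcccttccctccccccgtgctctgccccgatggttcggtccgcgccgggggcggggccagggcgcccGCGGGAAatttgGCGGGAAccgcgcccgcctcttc
DTL: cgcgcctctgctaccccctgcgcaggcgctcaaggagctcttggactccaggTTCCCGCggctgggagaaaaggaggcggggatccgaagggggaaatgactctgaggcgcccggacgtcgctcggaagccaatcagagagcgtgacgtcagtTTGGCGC
MCM6: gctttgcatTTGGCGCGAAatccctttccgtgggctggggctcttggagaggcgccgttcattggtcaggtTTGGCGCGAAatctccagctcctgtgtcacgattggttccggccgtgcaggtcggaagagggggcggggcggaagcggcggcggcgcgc
GINS2: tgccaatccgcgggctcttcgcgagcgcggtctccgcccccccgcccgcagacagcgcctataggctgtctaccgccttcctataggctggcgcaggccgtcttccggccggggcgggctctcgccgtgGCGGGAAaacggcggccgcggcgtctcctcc
RRM2: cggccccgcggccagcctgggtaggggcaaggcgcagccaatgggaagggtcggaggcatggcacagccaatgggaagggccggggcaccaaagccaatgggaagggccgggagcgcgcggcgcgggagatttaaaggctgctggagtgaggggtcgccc
MCM6 shows the same E2F match at 2 places, each a word on one strand overlapping a word on the other. CDT1 carries 2 sites close together, while GINS2 carries 1. RRM2 has none of these words in the stretch shown but several copies of CCAAT. A match describes letters only and does not show that a factor binds there.

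The deposited MAS5 signals had array medians between 111 and 168, and duplicates correlated at 0.945 to 0.977. Of 10 epithelial markers 9 passed the filter on low signals, and CDX2, at 5.57 to 23.4, did not. Among 7 leukocyte markers on the array PTPRC and CD3D did not pass, while LYZ was at 4380 to 9703. The summed signal of the 7 ranged from 5732 to 9428 over the 6 no-factor arrays and from 6303 to 8755 over the 6 TNF 100 arrays. Most of that sum was LYZ, with a median of 6704 over all arrays. With TNF 100 the leukocyte marker ITGAM was higher by 1.20 (log2) and CD14 lower by a log2 difference of -0.66. The epithelial markers CDH1, KRT19, VIL1 and LGALS4 were lower. KRT20 also passed the F test over the 3 times, but its mean difference was 0.08 ± 0.09 (SE), so no direction is given for it. The part of these markers in the results below was not tested. The ACTB 3′ to 5′ ratio, a measure of RNA integrity, had a median log2 of 0.32 in the 9 arrays of 8 h replicate 2 and of -0.04 in the other 45, and was highest in TNF 100 at 8 h replicate 2 (1.19) and in insulin 500 at 8 h replicate 2 (0.98). Without this pair of arrays TNF 100 lowered 31 members over the 3 times and 13 at 8 h, against 30 and 18 with them.

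TNF at 100 ng/ml lowered most of the set. A gene was called when the moderated F test of limma over the 3 times gave an adjusted p under 0.05 (Benjamini-Hochberg over 13422 probe sets), with the direction of the mean difference. By that rule 30 of 36 members fell and 0 rose, where 11.3% of all 8105 genes were called lower and 7.29% higher. After centring each array on its median, 29 members fell and 0 rose, with 5.35% of all genes lower and 6.93% higher. The member median was -0.70 on the log2 scale, with a range from -1.46 (DTL) to -0.28 (TK1), against -0.09 for all genes. The 6 members not called were ORC1, CCNE1, CCNE2, CHAF1B, POLD1 and RFC2, whose mean differences were negative too. Same-numbered arrays deviated together in every pair of groups at 8 h, and in 27 and 31 of 36 pairs at 4 and 16 h. With the replicate number as a block within 8 h POLD1 and RFC2 were called as well (adjusted p = 0.0228 and 0.0338). Each array measured a whole culture, so fewer cells in S phase and less of these RNAs per cell cannot be told apart.

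**Figure D1:**
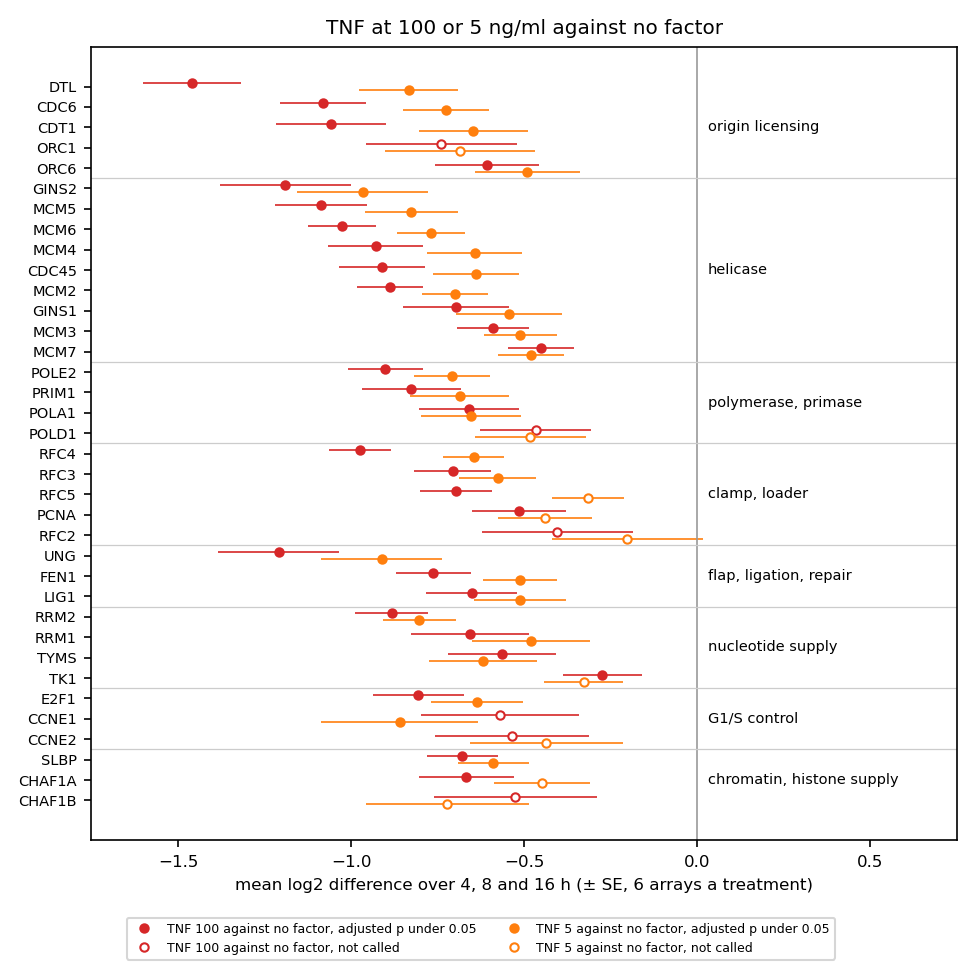
Mean log2 difference of each member over 4, 8 and 16 h, with TNF 100 in red and TNF 5 in orange, against no factor. Bars are standard errors from the fit to all 54 arrays, with 6 arrays a treatment, and filled points are called. All 36 points of TNF 100 and all 36 of TNF 5 lie left of 0, and DTL is farthest left at -1.46.

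Among licensing genes 4 of 5 fell with TNF 100. DTL, the receptor of the ubiquitin ligase that destroys CDT1 in S phase, gave signals of 810 and 1145 at 4 h, 783 and 1072 at 8 h, and 791 and 815 at 16 h without a factor. With TNF 100 it gave 471 and 526, then 199 and 372, then 229 and 234. The groups did not overlap at any time, and the mean difference was -1.46 ± 0.14 (SE; 2.75-fold lower, adjusted p = 7.12e-09). CDT1, which brings the MCM complex to origins, fell by 1.06, from 725 and 471 to 251 and 299 at 4 h. CDC6, its loading partner, fell by 1.08, and at 16 h it was at 885 and 674 without a factor and at 235 and 222 with TNF 100. ORC6 fell by 0.61, and was not called without no-factor 8 h replicate 2 (adjusted p = 0.0632). ORC1, the large origin recognition subunit, had a difference of -0.74 ± 0.22 (SE) that was not called (adjusted p = 0.083).

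All 9 helicase genes fell, by 0.45 (MCM7) to 1.19 (GINS2). GINS2, a subunit of the GINS complex, showed little of this early: at 4 h it was at 929 and 1091 without a factor and at 843 and 993 with TNF 100, which overlapped. At 8 h the signals were 992 and 1233 against 693 and 824, and at 16 h 825 and 973 against 102 and 119. The gap at 16 h was a log2 difference of -2.89, the most negative of any member at any time in this comparison. Both TNF 100 signals at 16 h were below 138.9, the level of the filter on low signals. MCM6, a helicase subunit, went from 1913 and 1714 to 427 and 558 at 16 h and fell by 1.03 ± 0.10 (SE) over the 3 times. MCM5 fell by 1.09, MCM4 by 0.93, CDC45 by 0.91 and MCM2 by 0.89.

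Of the polymerase and primase genes 3 of 4 fell. POLE2, the second subunit of the leading-strand polymerase, was at 914 and 1004, 755 and 669, and 509 and 492 at the successive times without a factor. TNF 100 gave 608 and 809, 364 and 372, and 162 and 225. Every TNF 100 array was below both controls of its time, and the mean difference was -0.90 ± 0.11 (SE; 1.87-fold lower). PRIM1, the catalytic primase subunit, fell by 0.83 and POLA1, the polymerase that extends primers, by 0.66. POLD1, of the lagging-strand polymerase, had a difference of -0.47 and was not called without the block.

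In the clamp and loader group 4 of 5 fell. RFC4, a loader subunit, was at 1678 and 2034, 1474 and 1780, and 1288 and 1180 without a factor. Under TNF 100 it was at 1203 and 1323, 823 and 707, and 493 and 490. No array of one group reached the other at any time, and the mean difference was -0.975 ± 0.09 (SE; adjusted p = 9.88e-10). RFC3 and RFC5 fell by 0.71 and 0.70, and PCNA, the clamp itself, by 0.51. RFC2 had a difference of -0.41 ± 0.22 (SE) and was not called without the block. At 8 h its replicate 2 was above replicate 1 both without a factor (1664 and 779) and with TNF 100 (1134 and 526).

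FEN1, LIG1 and UNG all fell. UNG, which removes uracil from DNA, was at 1132 and 1264, 1291 and 1717, and 481 and 381 without a factor. TNF 100 gave 889 and 1046, 401 and 420, and 167 and 124. Both arrays were lower at each time, by -1.21 ± 0.175 (SE; 2.31-fold) on average. FEN1, the flap nuclease, fell by 0.76 and LIG1, the ligase that seals Okazaki fragments, by 0.65.

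All 4 genes of nucleotide supply fell. RRM2, the small subunit of ribonucleotide reductase, was at 6650 and 7480 at 4 h and 4208 and 3704 at 16 h without a factor. With TNF 100 it was at 6570 and 6495 at 4 h, 4754 and 4052 at 8 h (controls 6422 and 5695) and 871 and 983 at 16 h. The 16 h difference was -2.08, and the mean over times was -0.88 ± 0.11 (SE). RRM1, the large subunit, fell by 0.66, TYMS, thymidylate synthase, by 0.56, and TK1, thymidine kinase, by 0.28 (adjusted p = 0.000757, 0.00154 and 0.0304). Without any single 16 h array of either group TK1 was not called (adjusted p from 0.138 to 0.145), and TYMS was not called without TNF 100 16 h replicate 1 (adjusted p = 0.0599).

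E2F1 alone was called among the G1/S control genes. It was at 500 and 463, 503 and 466, and 280 and 275 without a factor, and at 291 and 247, 201 and 316, and 162 and 172 with TNF 100. The groups did not overlap at any time, and E2F1 fell by 0.81 ± 0.13 (SE; adjusted p = 0.000247). The cyclin E genes CCNE1 and CCNE2 had differences of -0.57 and -0.54 with standard errors of 0.23 and 0.22. In the chromatin group SLBP, which binds the end of histone messages, fell by 0.68 ± 0.10 (SE), from 2830 and 2878 to 2384 and 2379 at 4 h and from 2772 and 3398 to 1659 and 1302 at 8 h. At 16 h SLBP was at 1329 and 1322 without a factor and at 856 and 746 with TNF 100, so the groups did not overlap at any time. CHAF1A, the large subunit of chromatin assembly factor 1, fell by 0.67, and CHAF1B had a difference of -0.53 that was not called.

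**Figure D2:**
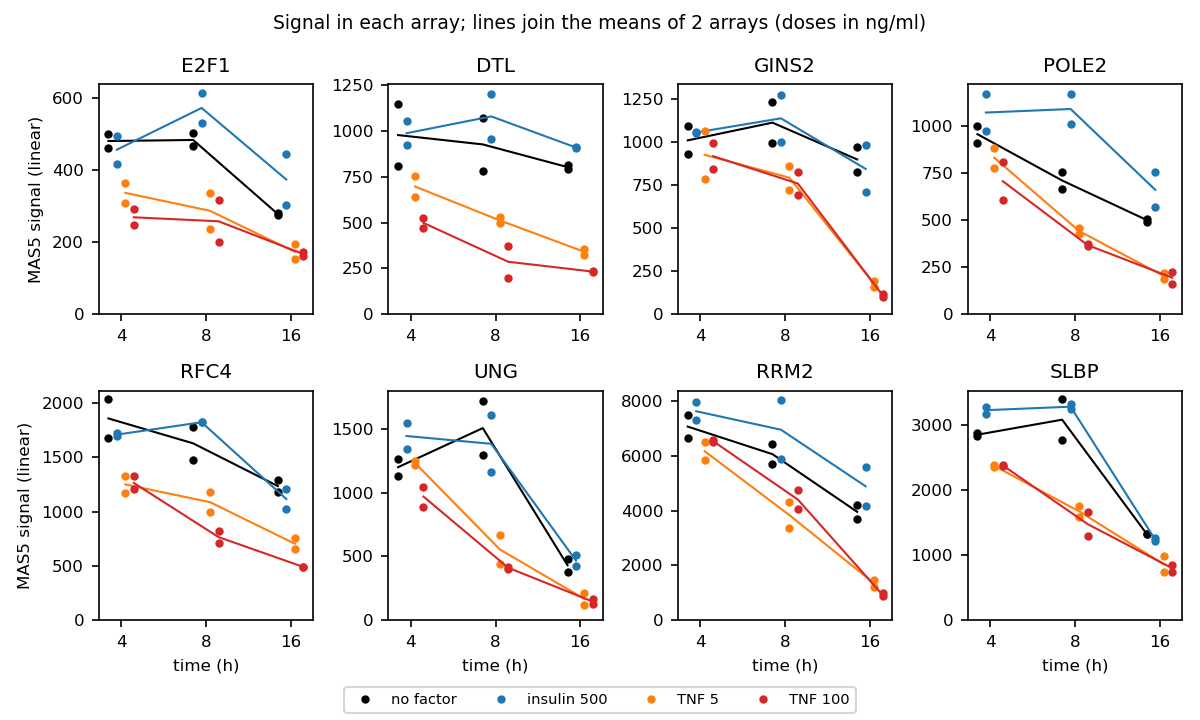
Signal in each array (points) and mean of the 2 arrays (lines) at 4, 8 and 16 h for the member with the largest mean change under TNF 100 in each role; the linear signal axes start at 0. The red TNF 100 points of GINS2 lie near the controls at 4 h and at 102 and 119 at 16 h, whereas DTL is already at 471 and 526 at 4 h. Those 16 h points of GINS2 are below the filter level of 138.9.

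More members were called at the later times. At 4 h 4 members were called lower with TNF 100 (2.04% of all genes lower, 2.95% higher), and they were CDT1 (-1.06), DTL (-0.935), E2F1 (-0.82) and RFC4 (-0.55). At 8 h 18 were lower (3.39% of all genes lower, 3.12% higher), and at 16 h 28 (8.28% lower, 5.85% higher), with 0 members higher at any time. Without no-factor 4 h replicates 1 or 2 the count at 4 h was 2 or 1, and without TNF 100 4 h replicates 1 or 2 it was 0 or 1. At 8 h it was 11 without no-factor replicate 1. Role medians of the difference at 4, 8 and 16 h were -0.61, -1.09 and -0.93 for licensing and -0.68, -0.53 and -0.66 for G1/S control. For the helicase they were -0.19, -0.93 and -1.58, and for nucleotide supply -0.02, -0.29 and -1.51. The difference was most negative at 16 h in 27 members, at 8 h in 8 and at 4 h in 1. Both TNF 100 arrays lay below both controls in 20, 30 and 35 members at the 3 times, against 26.5%, 26.1% and 35.8% of all genes. At 4 h all genes had a median of -0.10, and 0.06 after centring each array on its median, which left 0 members called at that time (0.623% of all genes lower, 3.17% higher) and 24 at 16 h (4.48% lower, 5.47% higher). Quantile normalization left 2 at 4 h (1.16% lower, 3.17% higher).

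**Figure D3:**
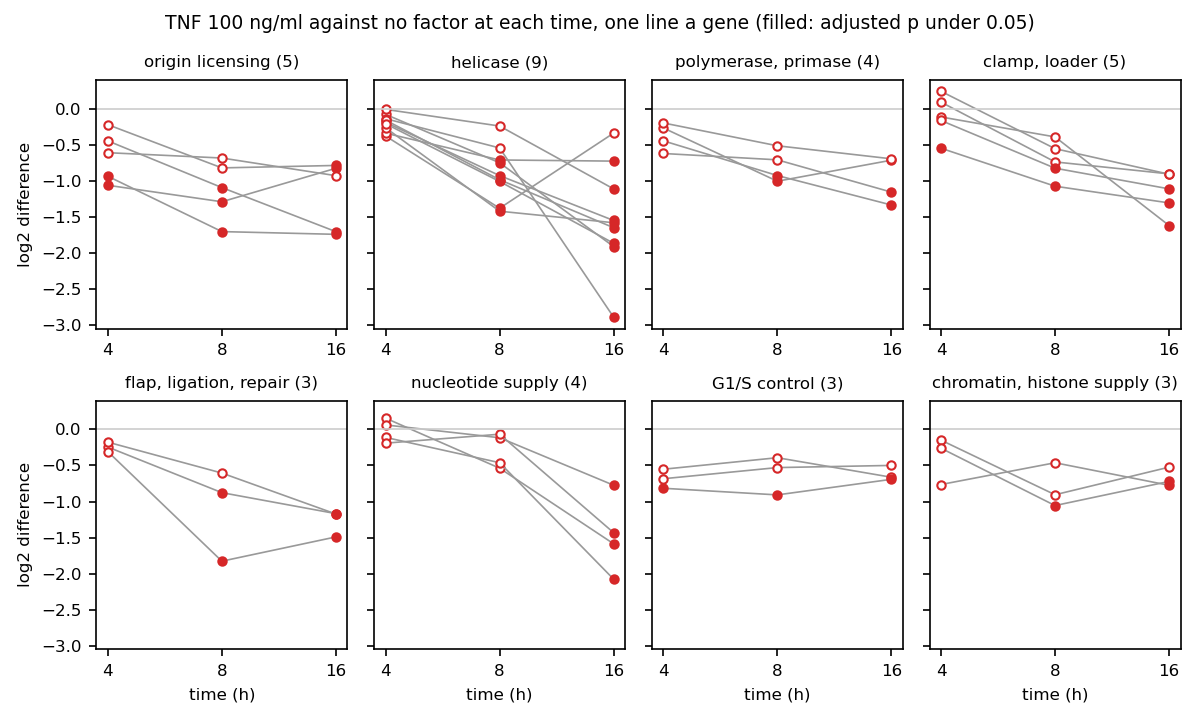
Log2 difference of each member between TNF 100 and no factor at 4, 8 and 16 h, with a panel for each role and a line for each gene; filled points are called at that time alone. The helicase panel runs from a median of -0.19 at 4 h to -1.58 at 16 h, whereas G1/S control stays between -0.53 and -0.68.

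Whether the TNF 100 difference changed over time was tested directly, by limma's moderated F over the changes at 8 and 16 h from 4 h. It was called for 11 members, all with a more negative difference at 16 h, against 1.46% of all genes called in that direction and 1.52% in the other. They were GINS2 (-2.75 ± 0.46, SE), RRM2 (-1.97), CDC45, RRM1 (-1.74), MCM6 (-1.66), RFC3, MCM4 (-1.49), MCM2 (-1.36), MCM5 (-1.32), CDC6 (-1.26) and MCM7 (-1.10). For GINS2 the TNF 100 signals at 16 h were below the filter level. The count was 6 without no-factor 16 h replicate 1 or TNF 100 16 h replicate 1, and 7 without no-factor 4 h replicate 2. GINS2, RRM2, CDC45, MCM6, RFC3 and MCM2 kept their call whichever array was left out, and RRM1 lost it in 8 of 12 cases, MCM5 in 7, CDC6 and MCM4 in 6 each and MCM7 in 2. The count was also 6 after median centring and 4 when only the groups compared were fitted. With the replicate block within 8 h it was 15 with a more negative difference at 16 h than at 4 h, and GINS1. Among the 15, PCNA, FEN1, UNG and TYMS were added (-0.996, -0.92, -1.18 and -1.24, with adjusted p = 0.0268, 0.0411, 0.0145 and 0.0161 by the same F test). GINS1 hardly differed between 16 and 4 h (0.04, adjusted p = 0.0178), and the F test also covers the change at 8 h.

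TNF at 5 ng/ml, tested against the same no-factor arrays, lowered 27 of 36 members and raised 0, where 3.22% of all genes were called lower and 4.8% higher. The median was -0.64, against -0.03 for all genes. GINS2 fell by 0.97, UNG by 0.91, CCNE1 by 0.86, DTL by 0.83, MCM5 by 0.83 and RRM2 by 0.80. At 16 h GINS2 was at 157 and 192 and RRM2 at 1218 and 1484, both well below the controls. The members not called were ORC1, POLD1, PCNA, RFC2, RFC5, TK1, CCNE2, CHAF1A and CHAF1B, of which CHAF1B had -0.72 ± 0.235 (SE). POLD1 and PCNA were called with the replicate block within 8 h (adjusted p = 0.0237 and 0.00297). At the single times 1 member was called lower at 4 h (RFC4, -0.56; 0.271% of all genes lower, 1.94% higher), 13 at 8 h (1.06% lower, 2.38% higher) and 24 at 16 h (2.52% lower, 3.17% higher). The 8 h count was 7 without no-factor replicate 1, 2 without no-factor replicate 2, 6 without TNF 5 replicate 1 and 7 without TNF 5 replicate 2. At 16 h it was 10 without no-factor replicate 1 and 15 without TNF 5 replicate 1. RFC4 lost its 4 h call without no-factor 4 h replicate 2 or either TNF 5 array. Over the 3 times CDT1 lost its call in 8 of 12 cases with an array left out and CCNE1 in 7, and with only the groups compared in the fit 17 members were called.

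No member passed the test between the doses. TNF 100 against TNF 5 called 0 of 36 with limma (11 had an unadjusted p under 0.05), where 0.839% of all genes were lower and 0.703% higher. The difference was negative in 30 members, with a median of -0.16. DTL was at 639 and 755, 497 and 528, and 356 and 323 with TNF 5, above both TNF 100 arrays at each time, and differed by -0.63 ± 0.14 (SE; adjusted p = 0.0606). RFC4 differed by -0.33 ± 0.09 (SE; adjusted p = 0.0592). With the replicate block within 8 h DTL and RFC4 were called (adjusted p = 0.0291 and 0.042). The count was 1 (higher) without TNF 5 16 h replicate 1 and 1 (lower) without TNF 100 8 h replicate 2. The highest differences were 0.29 ± 0.23 (SE) for CCNE1 and 0.20 ± 0.235 (SE) for CHAF1B.

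The members also declined with time in cells given no factor. From 4 to 16 h 21 of 36 fell and 0 rose (4.16% of all genes lower, 6.86% higher), with a median change of -0.85 against 0.01 for all genes. GINS1 fell by 1.82, FEN1 by 1.55, UNG by 1.46 and MCM3 by 1.16. Genes of several roles were not called and had small changes: CDC6 0.12, ORC6 and TK1 0.07, GINS2 -0.17, RFC3 -0.21, DTL -0.26 and CDC45 -0.32. RFC3 was at -1.18 ± 0.42 (SE) on a further probe set, also not called. Other members not called had larger changes, among them CCNE2 (-0.91 ± 0.385, SE). ORC1, not called either, went from 355 and 415 at 4 h to 146 and 188 at 16 h. CHAF1B was added with the replicate block within 8 h (-1.28, adjusted p = 0.0333). The count was 10 without no-factor 16 h replicate 2 and 11 with only those groups fitted. Under TNF 100 31 members fell over the same hours (11.5% of all genes lower, 13% higher), with a median of -1.61. GINS2 fell by 2.92, RRM2 fell by 2.80, UNG fell by 2.64 and FEN1 fell by 2.47. CCNE1, CCNE2, CDT1, E2F1 and ORC6 were not called, with changes from -1.02 (CCNE2) to -0.49 (ORC6). These courses share the arrays of the TNF 100 comparison.

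**Figure D4:**
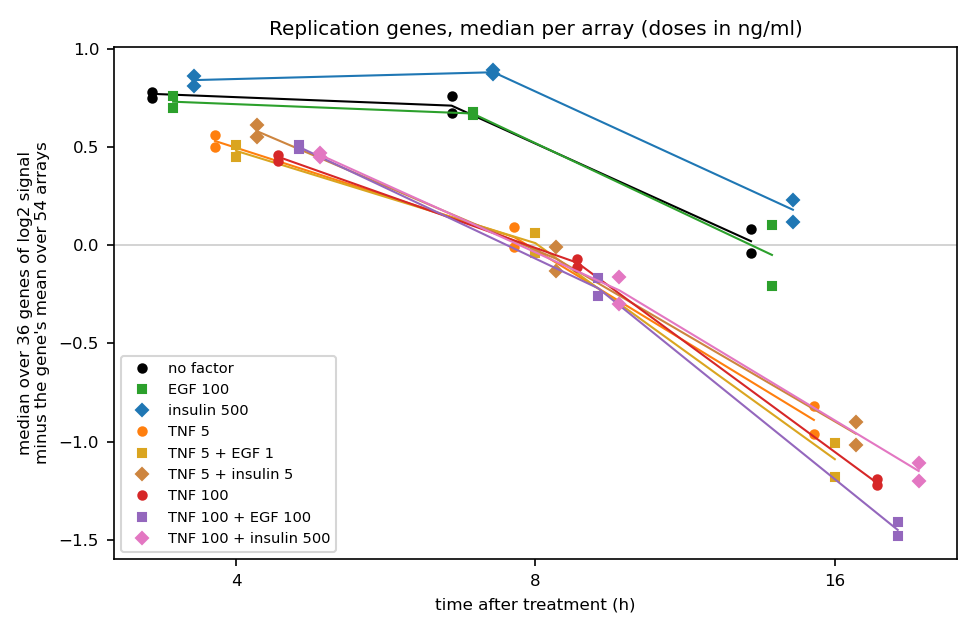
Median over the 36 genes of the log2 signal relative to each gene's mean over all 54 arrays, with a point for each array and lines joining group means at 4, 8 and 16 h. At 8 h no-factor, EGF 100 and insulin 500 arrays lie between 0.66 and 0.89 and all arrays with TNF between -0.30 and 0.09.

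The median over members gave each array a single level. Relative to each gene's mean, no-factor arrays were at 0.78 and 0.75 at 4 h, 0.76 and 0.67 at 8 h, and 0.08 and -0.04 at 16 h. TNF 100 arrays were at 0.46 and 0.43, -0.11 and -0.07, and -1.22 and -1.19. TNF 5 arrays were at 0.50 and 0.56, -0.01 and 0.09, and -0.96 and -0.82, so both doses were below the controls at each time. The highest group was insulin 500 at 8 h (0.87 and 0.89) and the lowest TNF 100 with EGF 100 at 16 h (-1.48 and -1.41). No-factor and EGF 100 arrays at 4 h overlapped in this order, as did TNF 5 and TNF 5 with EGF 1 at 8 h. The 16 h no-factor arrays were near the 8 h TNF 5 arrays.

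Neither EGF nor insulin alone changed a member by the test. EGF 100 called 0 of 36 with limma (0 at an unadjusted p under 0.05; 0.0617% of all genes lower, 0.580% higher), with 19 negative and 17 positive differences and a median of -0.02. Insulin 500 called 0 (1 at an unadjusted p under 0.05; 0.160% lower, 0.111% higher), but 26 differences were positive and the median was 0.14. POLE2 had the largest, 0.38 ± 0.11 (SE; adjusted p = 0.364), with 1014 and 1172 at 8 h against controls at 755 and 669. At 16 h 29 members were positive, the median was 0.22, and 4 had an unadjusted p under 0.05 with 0 called. Both insulin arrays lay above both controls in 16 members at 16 h, against 18.6% of all genes, among them MCM2 (0.39), MCM5 (0.405), FEN1 (0.39) and GINS1 (0.53).

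Adding TNF 100 to EGF or insulin lowered the members with controls other than the no-factor arrays. Against EGF 100 alone, TNF 100 with EGF 100 lowered 31 of 36 and raised 0 (10.6% of all genes lower, 6.24% higher), with a median of -0.84. GINS2 fell by 1.82, DTL by 1.49, MCM5 by 1.39 and CDC6 by 1.33. At 16 h both GINS2 signals of the combination, given below, were under the filter level of 138.9. The replicate block within 8 h added POLD1, RFC2 and CHAF1B (adjusted p = 0.0188, 0.0435 and 0.0424). Against insulin 500 alone, TNF 100 with insulin 500 lowered 34 of 36 and raised 0 (13.5% lower, 9.32% higher), with a median of -0.97; after median centring 31 fell (6.51% lower, 10.1% higher). UNG fell by 1.54, GINS2 by 1.51, POLE2 by 1.37 and TYMS by 1.34, and the cyclin E genes were called here, CCNE1 at -0.84 and CCNE2 at -0.90. ORC1 and RFC2 were the pair not called, and RFC2 was called with the replicate block within 8 h (adjusted p = 0.0236). On its further probe set RFC2 was at -0.597 and was called without the block (adjusted p = 0.00624 by the F test). All 36 members had both combination arrays below both insulin arrays at 16 h, where 35.3% of all genes did. The interaction of TNF 100 with EGF 100 was called for 0 members (3 at an unadjusted p under 0.05; 0.0123% of all genes lower, 0.0247% higher), and that with insulin 500 for 0 (4 at an unadjusted p under 0.05; 0% lower, 0.0123% higher), both with limma.

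No member passed the test over the 3 times when a growth factor was added to TNF. TNF 100 with EGF 100 against TNF 100 called 0 over the 3 times with limma (8 at an unadjusted p under 0.05; 0.0987% of all genes lower, 0.197% higher), though 33 differences were negative, with a median of -0.12. GINS2 had the largest, -0.71 ± 0.19 (SE; adjusted p = 0.0523), and with the replicate block within 8 h it was called (adjusted p = 0.0317). At 16 h GINS2 was at 7.76 and 57.4 in the combination and at 102 and 119 with TNF 100 alone. That difference, -1.70, was the single call at 16 h (adjusted p = 0.0455; 0.0123% of all genes lower, 0.037% higher), and both combination signals are below the filter level of 138.9. The count over times was 1 without TNF 100 8 h replicate 1 or TNF 100 with EGF 100 8 h replicate 1, and 2 without TNF 100 with EGF 100 16 h replicate 2. TNF 100 with insulin 500 against TNF 100 called 0 (2 at an unadjusted p under 0.05; 0.111% lower, 0.506% higher), with a median of -0.08. TNF 5 with EGF 1 and TNF 5 with insulin 5 against TNF 5 called 0 members (3 and 2 at an unadjusted p under 0.05) and 0 of all genes with limma, with medians of -0.11 and -0.06.

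**Figure D5:**
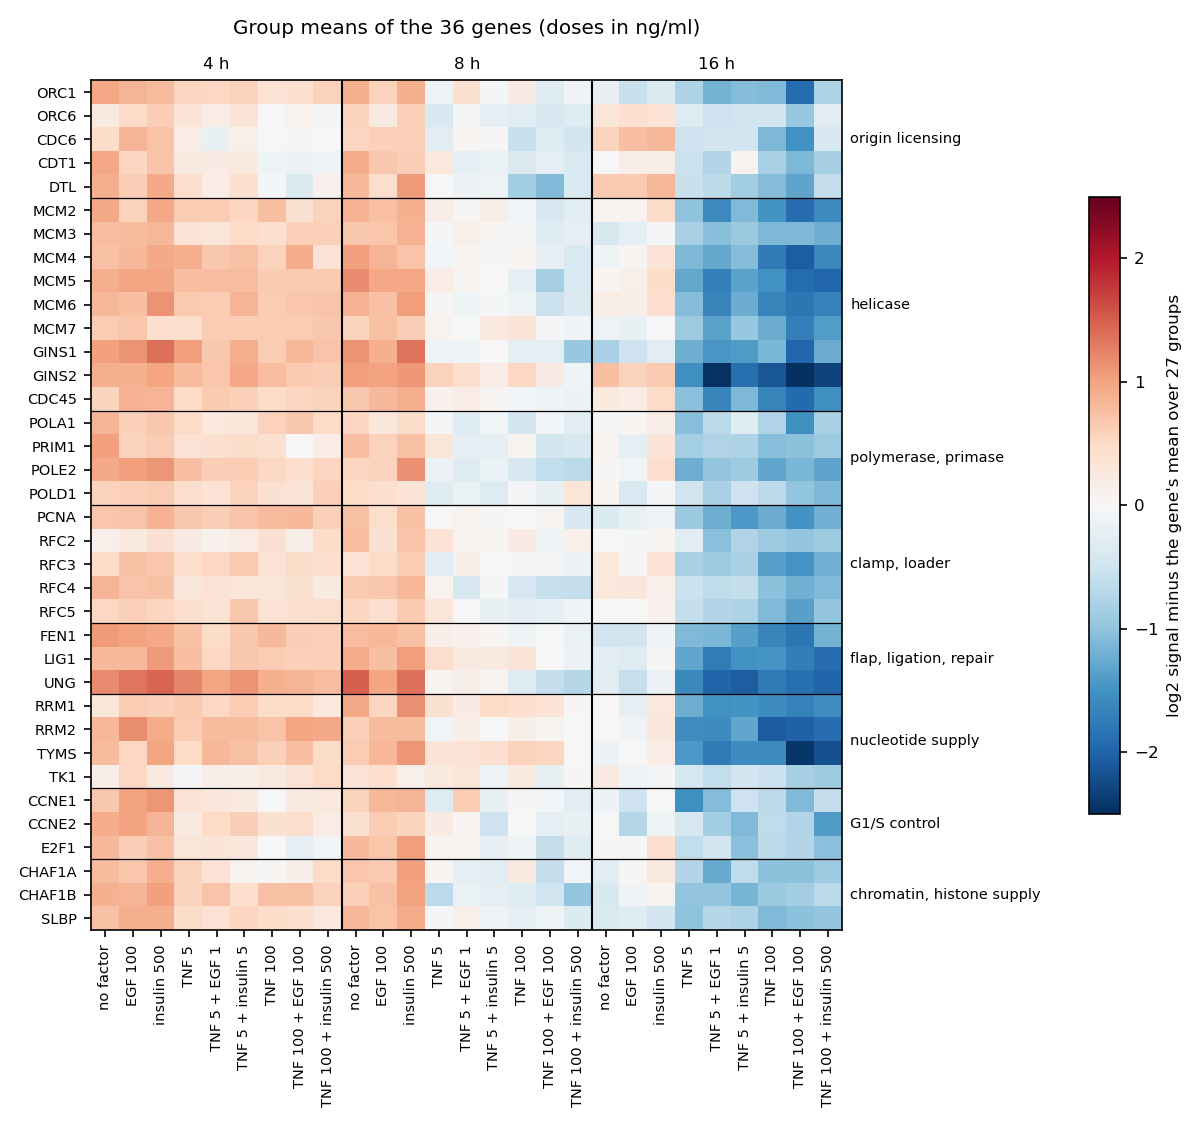
Group mean log2 signal of each member relative to its mean over the 27 groups, by role (horizontal lines) and time (vertical lines); colours are limited to 2.5 in either direction. The columns with TNF turn blue at 16 h, deepest in GINS2 (7.76 and 57.4 with TNF 100 and EGF 100, both below the filter level), while CDC6 and DTL stay red at 16 h in the columns without TNF.

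Across the 27 groups each member was set against the median profile of the other members. Pearson's r had a median of 0.95 over the 36 and ranged from 0.79 (CDC6) to 0.99 (MCM6), against a median of 0.03 for all genes. The groups share control arrays, times and scaling, so r is a description with no test. CDC6, DTL (0.81), ORC6 (0.844) and CDT1 (0.851) followed the others least, while ORC1, also of licensing, was at 0.953. MCM2 (0.986) and MCM5 (0.985) were next to MCM6. The range over groups was narrowest in TK1, 1.41 on the log2 scale. The 10 genes outside the set with the highest r were POLR3K and VOPP1 (0.986 each), NUP85, DTYMK, RPA1, PRPS1, NASP, TUBA4A, TFDP1 and MTHFD1 (0.973). DTYMK makes thymidine diphosphate, RPA1 coats single-stranded DNA, NASP carries histones and TFDP1 is the partner of E2F factors. Of the 10, only RPA1 and NASP are in the list of other replication genes used below. The genes with the highest r, POLR3K, VOPP1 and NUP85, are not in it.

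Of 40 other replication genes listed, 35 were measured. With TNF 100 25 of the 35 fell, 0 rose and 10 were not called, with a median of -0.59, where 11.3% of all genes were lower. Over time without a factor 7 fell and 2 rose (4.16% of all genes lower, 6.86% higher). Over the same hours under TNF 100, 20 fell and 2 rose (11.5% lower, 13% higher). HELLS, a chromatin remodeller, fell by 1.51 ± 0.40 (SE), CDC25A, the phosphatase that activates cyclin-dependent kinases, by 1.41, MSH6, a mismatch repair protein, by 0.995, EXO1, a repair nuclease, by 0.98, MCM10, a replication initiation factor, by 0.98 and BRCA1 by 0.92. With TNF 5 13 of the 35 fell and 0 rose (3.22% of all genes lower). Among 16 measured control genes 3 fell with TNF 100 (E2F8, a repressor of the E2F family, by 1.28, CDK4 by 0.36 and CCND3 by 0.18) and 1 rose, counts near the 11.3% of all genes called lower and 7.29% called higher. The riser was CDKN1A, which encodes the kinase inhibitor p21, at 2.23 ± 0.19 (SE, adjusted p = 7.64e-11 with limma). It also rose with TNF 5 (1.62), with EGF 100 (1.15) and with insulin 500 (0.80). Without a factor CDKN1A rose by 2.71 from 4 to 16 h and MYC by 1.51. The part of CDKN1A and MYC in the members' changes was not tested. Of 25 genes of G2 and mitosis 9 fell with TNF 100 and 0 rose, with a median of -0.33, among them KIF11 (-0.73) and FOXM1 (-0.63). Adding TNF 100 to EGF 100 lowered 14 of the 25 (10.6% of all genes) and adding it to insulin 500 lowered 16 (13.5%), with 0 higher. From 4 to 16 h 14 of the 25 fell without a factor (4.16% of all genes) and 21 under TNF 100 (11.5%), again with 0 higher.

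A member's other probe sets gave a check on the one used. Of 54 member probe sets 53 passed the filter, and 13 members had at least 2. Every one of these had a negative difference with TNF 100, but sizes and calls varied. MCM5 was at -1.98 ± 0.14 (SE) on a further probe set and -1.09 on the one used, and E2F1 at -1.31 and -0.81. RFC5, by contrast, was at -0.09 ± 0.22 (SE) on a further probe set, where the one used gave -0.70. That further probe set was not called (adjusted p = 0.84 by the F test). The further probe sets of RRM1 (adjusted p = 0.103) and CHAF1A (adjusted p = 0.134 and 0.0623) were not called either, by the same test. Members with E2F words in their window had a median of -0.71 with TNF 100 (25 genes), and those without them -0.64 (8 genes), with ranges from -1.46 to -0.40 and from -0.91 to -0.28.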

How the data were processed

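RNA of 54 cultures was hybridized to Affymetrix arrays, and the authors deposited linear MAS5 signal intensities, per the submitters' processing notes; the MAS5 settings are not given in the sources used here. A pseudocount of 12.49 (percentile 10 of the deposited signals) was added before log2, so differences of dim genes are understated. Probe sets whose group mean reached the median of all values, a signal of 138.9, in at least 1 of 27 groups were tested (13422 of 22215, with 68 controls left out), and each gene is described by its probe set with the highest mean. In R 4.3.3, limma 3.58.1 fitted 27 group means to all 54 arrays (27 residual degrees of freedom, intensity trend), and p was adjusted by Benjamini-Hochberg over the kept probe sets. With 2 arrays a group, their number limits the precision. Arrays sharing a replicate number deviated together (correlation over 0.1) in every one of 36 group pairs among the 8 h arrays, with a median correlation of 0.428. Among 4 h arrays 27 pairs did so (median 0.2), and among 16 h arrays 31 (median 0.205). The data thus hint at a shared effect of the replicate number in all times, strongest for 8 h. The main fit has no block for it. Members named with a block come from blocking the 8 h arrays alone, and blocking within each time is reported as counts. Fits were run on simulated data with independent noise in every array, so the likeness of same-numbered arrays was not covered. Log2 changes of 0.5 and 1 were recovered in 14.9% and 77.6% of cases for TNF 100 against TNF 5. For the change of the TNF 100 effect, simulated at 16 h, they were recovered in 0% and 17.9%. Changes of such sizes can thus go uncalled. All 36 members are named, with values in every array for the member of each role that changed most under TNF 100 on average; array values of CDT1, CDC6, MCM6 and RFC2, and the promoters printed, were chosen after their values were seen. The members and lists were chosen with earlier results of these data known, including that these genes are lower with TNF, so their direction is not independent support. Alternatives covered the pseudocount, filter, scaling, trend, block, probe set, arrays left out and groups fitted.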

Additional observations from a re-analysis of the deposited data

Results flagged for a closer look

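For 11 members the effect of TNF 100 differed between times, by limma's F test of the change itself with Benjamini-Hochberg adjustment. The log2 difference from no factor at 16 h minus that at 4 h was -2.75 for GINS2, -1.97 for RRM2, -1.835 for CDC45, -1.74 for RRM1, -1.66 for MCM6, -1.51 for RFC3, -1.49 for MCM4, -1.36 for MCM2, -1.32 for MCM5, -1.26 for CDC6 and -1.10 for MCM7. In each the difference was more negative at 16 h. For GINS2 both TNF 100 signals at 16 h were below the filter level of 138.9. GINS2, RRM2, CDC45, MCM6, RFC3 and MCM2 were called in each of the 12 fits that left out an array.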

How the results depend on the processing

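In every alternative run all members called with TNF 100 or TNF 5 against no factor were lower. TNF 100 lowered 28 to 31 members with an array left out and 27 to 32 under the other settings, and TNF 5 21 to 27 and 17 to 32. With an array left out the counts were 30 to 31 for TNF 100 with EGF against EGF, 31 to 34 for TNF 100 with insulin against insulin, 10 to 20 for time without a factor, 28 to 32 for time under TNF 100 and 6 to 12 for the change of the TNF 100 effect. They were 0 to 2 at 4 h, 11 to 16 at 8 h and 22 to 23 at 16 h for TNF 100, and 0 to 1, 2 to 7 and 10 to 18 for TNF 5, fewer arrays being fitted. They were 0 to 1 for TNF 100 against TNF 5, 0 to 2 for TNF 100 with EGF against TNF 100 and 0 to 1 for the interaction of TNF 100 with EGF.

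With the replicate block over all times, TNF 100 against TNF 5 called 2 members and TNF 100 with EGF against TNF 100 called 1; with the replicate block within 8 h the counts were again 2 and 1, and beyond the members named with the results it changed no member's call over the 3 times in the comparisons of treatments, in time without a factor or in the change of the TNF 100 effect. With the replicate block within each time they were 4 and 1, and TNF 5 at 8 h had 21. The change of the TNF 100 effect then had 19 (18 lower, 1 higher, by the sign of 16 h minus 4 h only). With only the groups compared in the fit, and so fewer arrays, the counts were 17 for TNF 5, 11 for time without a factor, 4 for the change of the TNF 100 effect, 0 and 2 for TNF 100 at 4 and 8 h, and 0 and 0 for TNF 5 at 4 and 8 h.

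Quantile normalization left 2 members for TNF 100 at 4 h. Median centring left 0 there, 6 for the change of the TNF 100 effect and 0 for TNF 5 at 4 h. It moved the share of all genes called higher and lower with TNF 100 from 7.29% and 11.3% to 6.93% and 5.35%, with 29 members lower. TNF 5 at 4 h also had 0 with no filter, with no intensity trend, without the 8 h arrays and without the pair of arrays with the highest ACTB ratio, an alternative chosen after seeing the data. That last setting gave 1 for TNF 100 against TNF 5. TNF 100 with EGF against TNF 100 had 1 with a pseudocount of 1 and 1 with the filter at the 60th percentile, which gave 1 for TNF 100 against TNF 5. A gene's next probe set gave 2 for TNF 100 against TNF 5 and 1 (higher) for TNF 100 with insulin against TNF 100. The causes were not tested.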
